A study of Mus musculus with 26 samples.

Results

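The 10 genes described here encode chloride channels and the scramblases related to them. They are the 5 subunits of the volume-regulated anion channel (Lrrc8a, Lrrc8b, Lrrc8c, Lrrc8d and Lrrc8e), 3 members of the CLC family (Clcn2, Clcn3 and Clcn7) and 2 anoctamins (Ano4 and Ano6). They were taken by gene symbol from a table of 55416 genes, and each symbol matched 1 gene. RNA was measured in the choroid plexus (ChP) of the 4th ventricle of adult male mice, to ask which transcripts cycle and what is left of the cycle without the suprachiasmatic nuclei (SCN), the central circadian pacemaker. The Ctrl group was 12 sham-operated C57Bl6J mice and the SCNx group was 12 C57Bl6J mice with an electrolytic SCN lesion. Mice of both groups were in constant darkness after a light-dark cycle, and 1 mouse per group was killed every 4 h from circadian time (CT) 0 to CT44. A library is therefore 1 mouse, named by group and time, and no time point has a replicate within its cycle. The 2 KO mice had the genotype FoxJ1-ERT2-Cre+/-; Bmal1fl/fl and received tamoxifen in the diet. They were older, lived under a light-dark cycle and were killed at Zeitgeber time (ZT) 7 and ZT18. Their Cre is driven by Foxj1, a gene of cells with motile cilia, so other cells of the tissue keep Bmal1.

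The ChP epithelium makes cerebrospinal fluid by moving ions, with water following, and chloride is the main anion moved. A channel of the LRRC8 family opens when a cell swells and lets chloride and small organic solutes out. LRRC8A is the subunit that every such channel needs, and the other subunits join it and set what passes. CLC-2 is a chloride channel of the plasma membrane, whereas CLC-3 and CLC-7 exchange chloride for protons in endosomes and lysosomes. ANO6 is a calcium-activated phospholipid scramblase that also conducts ions, and ANO4 is a related protein of the same family.

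The 24 Ctrl and SCNx libraries held 38751201 to 49527655 estimated counts and the KO libraries 17425207 and 18059227. Of the 10 genes, 9 reached the minimum for testing, a mean of 1 CPM (the count scaled to library size) in both groups, as did 13697 of all genes. The summed level of 10 epithelial markers was 141329 to 168909 CPM in Ctrl, 114043 to 162220 in SCNx and 82470 to 86913 in KO, with none of the markers at 0. Neuron, astrocyte and oligodendrocyte markers were highest in Ctrl CT4 and SCNx CT32 among the libraries of their groups. The 7 neuron markers summed to 258 and 428 CPM there, against medians of 15.8 in Ctrl and 14.6 in SCNx. The 6 hepatocyte markers summed to 1700 CPM in Ctrl CT16 and 9998 in SCNx CT0, and to at most 26.6 in any other library of the series. Fits were also run without Ctrl CT4 and SCNx CT32 and without all 4 of these libraries. Calls of the 10 genes that changed are named below.

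Transcript level differed widely among the 10 genes. In Ctrl, CPM divided by the length of all annotated exons in kb was highest for Lrrc8a at 14.96 ± 0.879 (SD, n = 12). Ano6 at 10.9 ± 0.648, Clcn7 at 9.51 ± 0.648 and Clcn3 at 8.42 ± 0.578 CPM per kb followed. The range of Lrrc8a did not overlap that of Ano6, whereas Ano6 overlapped Clcn7 and Clcn7 overlapped Clcn3. A gap separated these 4 genes from the next 5, which overlapped each other in turn. Those were Lrrc8c at 3.48 ± 1.19, Ano4 at 2.64 ± 0.559, Lrrc8b at 2.26 ± 0.582, Lrrc8d at 2.15 ± 0.328 and Clcn2 at 1.92 ± 0.456 CPM per kb. Lrrc8e was last at 0.129 ± 0.0379 CPM per kb, and its highest library, at 0.193, lay below the lowest of any other gene. With the length of the longest basic transcript in place of all exons, Ano6 at 27.1 and Clcn3 at 25.3 CPM per kb came above Lrrc8a at 14.98, and Lrrc8d at 6.87 came above Ano4, Lrrc8c, Clcn2 and Lrrc8b. Under both lengths the same 4 genes led and Lrrc8e was last.

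Lrrc8e was close to the detection limit. It had 0.289 CPM in its lowest Ctrl library, a median of 0.516 and 0.799 in its highest, and 0.328, 0.481 and 0.694 CPM in SCNx. These values stood on 14 to 38 estimated counts per library in Ctrl and 14 to 29 in SCNx, and the mean lay below the minimum for testing. A fit with no filter on low counts gave adjusted p-values of 0.508 for a rhythm in Ctrl, 0.993 for a rhythm in SCNx, 0.923 for their difference and 0.742 for the level by edgeR's quasi-likelihood F test. All 12 of its SCNx values lay within the Ctrl range.

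In the mouse genome Lrrc8b lies next to Lrrc8c among the coding genes of chromosome 5, and 1 gene model, Gm42166, separates Lrrc8c from Lrrc8d. Lrrc8a lies on chromosome 2. The 250 bases before the transcription start of these 4 genes are shown because 3 of them cycled in Ctrl and the fourth, Lrrc8a, did not. They are from RefSeq, GRCm38.p6, plus strand, at chr2:30237519-30237768 for Lrrc8a, chr5:105415525-105415774 for Lrrc8b, chr5:105519221-105519470 for Lrrc8c and chr5:105699719-105699968 for the more upstream of 2 listed starts of Lrrc8d. The build differs from that of the counts, GRCm39. Capitals mark an E-box, CACGTG, the letters bound by BMAL1 with its partner CLOCK.
Lrrc8a: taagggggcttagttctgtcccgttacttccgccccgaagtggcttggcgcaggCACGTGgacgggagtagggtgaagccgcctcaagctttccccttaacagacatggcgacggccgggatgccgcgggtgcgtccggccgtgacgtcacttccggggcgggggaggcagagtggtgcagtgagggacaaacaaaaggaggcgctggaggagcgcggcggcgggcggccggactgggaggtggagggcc
Lrrc8b: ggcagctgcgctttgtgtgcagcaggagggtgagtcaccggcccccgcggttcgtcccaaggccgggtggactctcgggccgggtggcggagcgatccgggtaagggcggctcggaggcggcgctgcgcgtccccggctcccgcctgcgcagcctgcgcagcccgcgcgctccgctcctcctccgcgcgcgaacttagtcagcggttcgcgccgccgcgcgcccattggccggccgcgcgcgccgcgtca
Lrrc8c: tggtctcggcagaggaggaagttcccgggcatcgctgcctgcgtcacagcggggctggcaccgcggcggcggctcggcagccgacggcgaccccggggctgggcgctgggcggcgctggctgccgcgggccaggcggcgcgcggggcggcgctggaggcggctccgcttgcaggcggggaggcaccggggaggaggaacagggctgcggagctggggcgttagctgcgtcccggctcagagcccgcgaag
Lrrc8d: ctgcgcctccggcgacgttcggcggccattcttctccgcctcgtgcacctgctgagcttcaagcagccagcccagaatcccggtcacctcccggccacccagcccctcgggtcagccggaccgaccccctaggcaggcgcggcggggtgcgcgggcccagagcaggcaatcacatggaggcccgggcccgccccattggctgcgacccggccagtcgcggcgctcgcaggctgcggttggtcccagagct
The E-box of Lrrc8a begins 196 bases before the start. Windows from 250 bases before to 50 after the start were searched on both strands for 4 motifs, the E-box, the D-box (TTATGTAA or TTACGTAA), the ROR element (TAGGTCA) and the AGAACA half-site of the glucocorticoid receptor. An E-box was present in 7.15% of 32851 such windows of the mouse genome, a D-box in 1.06%, a ROR element in 2.61% and the half-site in 19.0%. Among the 10 genes, Lrrc8a had 1 E-box and the first listed window of Clcn7 had 2. No window of Lrrc8b, Lrrc8c, Lrrc8d, Clcn2 or Ano4 held any of the 4 motifs, and nor did those of Lrrc8e, Clcn3 or Ano6. A window without a match says only that these letters are not in it.

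In Ctrl mice, 5 of the 9 tested genes had a 24 h rhythm, where 10.7% of all tested genes did. They were Lrrc8c, Lrrc8d, Lrrc8b, Ano4 and Clcn2, and their fitted peaks lay between CT7.26 and CT10.5, the later part of the subjective day. Such peaks, between 7 and 11 h, were found for 405 of the 1459 rhythmic genes of Ctrl, or 27.8%. The study itself showed Lrrc8b, Lrrc8c and Clcn2 as rhythmic channels from these same mice, so their rhythm here is not independent evidence. The study used other methods and a looser threshold for adjusted values than the one used here. Rhythm was tested with edgeR's quasi-likelihood F test of a 24 h cosine and sine, and p-values were adjusted by Benjamini-Hochberg across all tested genes. Amplitudes are log2 differences from the mean of the fitted curve to its peak. The median amplitude was 0.29 for the 9 genes and 0.11 for all tested genes. Because the members were chosen with earlier results of these data known, these contrasts with all tested genes are not independent evidence either.

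Lrrc8c, an accessory subunit of the volume-regulated channel, had the widest swing. It had 15.6 CPM in its lowest Ctrl library, at CT44, a median of 24.5 and 43.6 CPM in its highest, at CT8. The 2 highest libraries were CT8 and CT32, 24 h apart, and the 2 lowest were CT20 and CT44, also 24 h apart. The highest library was 2.70 times the lowest in the first cycle and 2.45 times in the second. Its fitted amplitude was 0.63 ± 0.069 (SE) on the log2 scale with a peak at 8.86 ± 0.414 h (SE), a fold of 2.41 from trough to peak. The adjusted p was 1.37e-05, the 30th smallest of all tested genes.

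Lrrc8d, another accessory subunit, varied less but followed its curve closely. Its Ctrl libraries had 21.0 CPM at the lowest, at CT44, a median of 26.6 and 33.1 at the highest, at CT32. As for Lrrc8c, CT8 and CT32 were the 2 highest libraries and CT20 and CT44 the 2 lowest. The amplitude was 0.29 ± 0.027 (SE) with a peak at 7.26 ± 0.354 h and an adjusted p of 0.00112, and the curve accounted for 0.928 of the variance of log2 CPM. For Lrrc8c that share was 0.905.

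Lrrc8b, which lies beside Lrrc8c in the genome, had 9.27 CPM in its lowest Ctrl library, at CT44, a median of 14.8 and 22.1 in its highest. The highest library was CT4, 1 of the 2 rich in neuron markers, and the next was CT8 at 21.3 CPM. In the second cycle the highest was CT32 at 17.3 CPM. The amplitude was 0.44 ± 0.084 (SE), the peak was at 7.78 ± 0.724 h and the adjusted p was 0.0021. Without Ctrl CT4 and SCNx CT32 the amplitude was 0.40 and the adjusted p was 0.000642.

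Lrrc8a, the obligatory subunit, was nearly level over the 2 days. Its lowest Ctrl library had 59.3 CPM, the median was 63.8 and the highest, at CT0, had 73.1. The amplitude was 0.04 ± 0.036 (SE), with an adjusted p of 0.815, and the coefficient of variation across Ctrl libraries was 5.88%. The coefficient was 34.2% for Lrrc8c, 25.8% for Lrrc8b and 15.3% for Lrrc8d.

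The makeup of the LRRC8 transcript pool therefore varied with time. On the scale of CPM per kb of all exons, Lrrc8a made up 65.5% ± 5.96 (SD, n = 12) of the sum of the 5 subunits in Ctrl, Lrrc8c 14.9% ± 3.99, Lrrc8b 9.75% ± 2.05, Lrrc8d 9.33% ± 0.981 and Lrrc8e 0.567% ± 0.177. The share of Lrrc8a was lowest at CT8, 55.5%, and highest at CT44, 73.0%. The share of Lrrc8c was 22.04% at CT8, its highest, and 9.85% at CT24, its lowest. In SCNx the share of Lrrc8c ranged from 10.3% to 19.0% with a mean of 14.7% ± 2.59 (SD, n = 12). The shares depend on the length used. With the longest basic transcript, the group means in Ctrl gave 53.4% for Lrrc8a, 24.5% for Lrrc8d, 13.6% for Lrrc8c and 8.05% for Lrrc8b.

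**Figure D1:**
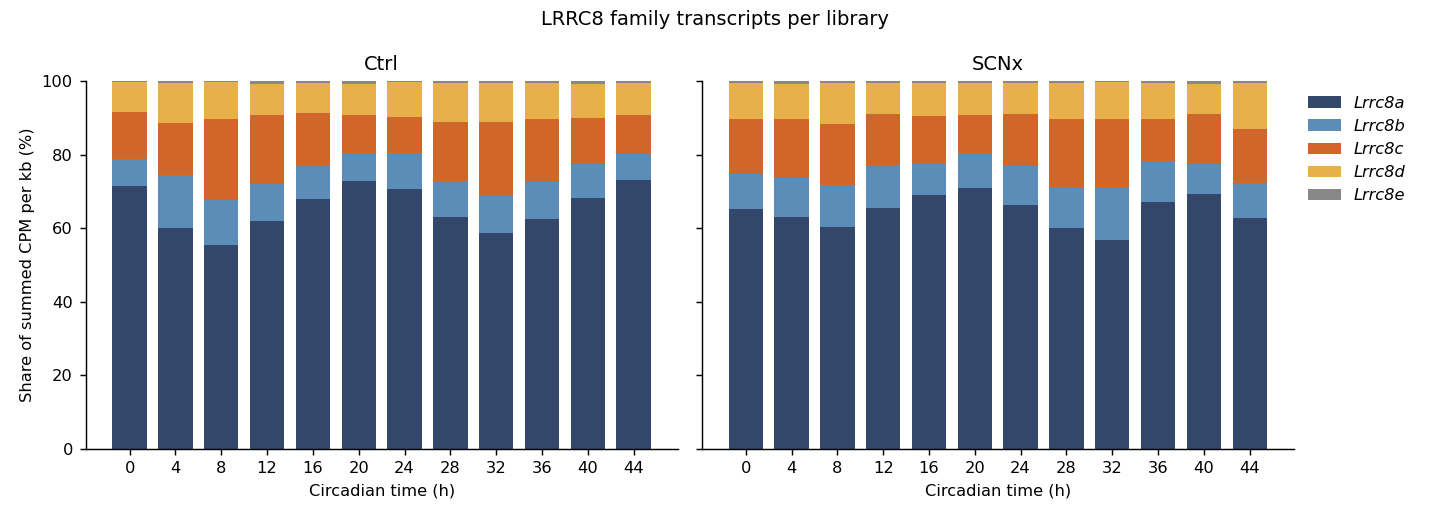
Share of each LRRC8 subunit in the summed CPM per kb of the 5 subunits (y axis, %) in each library by circadian time (x axis, h), Ctrl left and SCNx right, 1 bar per mouse. In Ctrl the band of Lrrc8c widened to 22.04% at CT8 and that of Lrrc8a was narrowest there, at 55.5%.

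Among the CLC genes, only Clcn2 passed the test. Clcn2, the channel of the plasma membrane, had 7.61 CPM at its lowest in Ctrl, at CT44, a median of 11.9 and 16.7 at its highest, at CT12. The highest library of the second cycle was CT36, 24 h after that of the first. The amplitude was 0.40 ± 0.084 (SE), the peak was at 10.5 ± 0.812 h and the adjusted p was 0.0255. This call was lost without any of 5 Ctrl libraries, with adjusted p-values of 0.0984 without CT12, 0.0594 without CT20, 0.0619 without CT24, 0.0537 without CT36 and 0.0792 without CT44, and it was lost when no filter on low counts was applied, at 0.0643.

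Clcn3 and Clcn7, the exchangers of endosomes and lysosomes, varied little. Clcn3 had 122 CPM at its lowest in Ctrl, a median of 145 and 163 at its highest, for an amplitude of 0.05 ± 0.042 (SE) with adjusted p = 0.752. Clcn7 had 44.4, 49.8 and 54.6 CPM, for an amplitude of 0.09 ± 0.032 (SE) with adjusted p = 0.113. The latter passed the threshold without Ctrl CT0, at 0.0115.

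The anoctamins differed from each other in the same way. Ano4 had 14.1 CPM at its lowest in Ctrl, at CT44, a median of 17.5 and 26.7 at its highest, at CT36. The highest libraries of the 2 cycles, CT12 and CT36, were 24 h apart. Its amplitude was 0.32 ± 0.077 (SE), its peak was at 10.5 ± 0.910 h and its adjusted p was 0.0131, but the latter was 0.0551 without Ctrl CT36. Ano6 had 124 CPM at its lowest, a median of 130 and 147 at its highest, for an amplitude of 0.08 ± 0.026 (SE) with adjusted p = 0.357. Without the 4 libraries rich in markers of other tissues, Ano6 passed the threshold at 0.0394.

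The calls for Lrrc8b, Lrrc8c and Lrrc8d held in all 9 other settings and in all 24 fits that left out 1 library. Ctrl CT44 was the lowest Ctrl library for 8 of the 10 genes, including the level ones Clcn3, Clcn7 and Ano6. Over all tested genes, 12.5% had their lowest Ctrl value there. Without it the adjusted p for a rhythm in Ctrl stayed under 0.05 for Lrrc8b, Lrrc8c, Lrrc8d and Ano4.

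**Figure D2:**
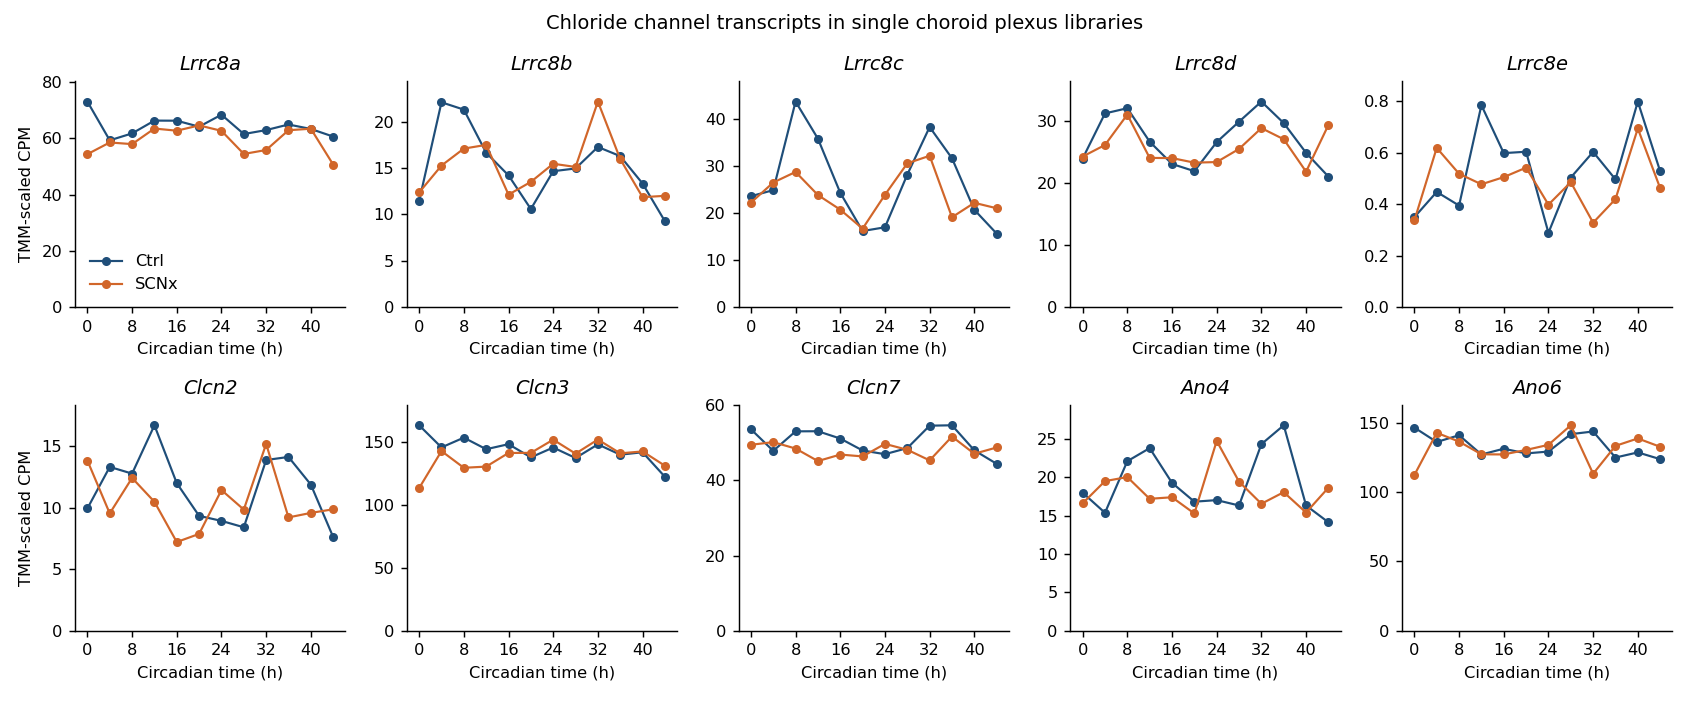
TMM-scaled CPM (y axis, from 0, own scale per panel) of the 10 genes by circadian time (x axis, h), 1 point per mouse, Ctrl in blue and SCNx in orange. Lrrc8b, Lrrc8c, Lrrc8d, Clcn2 and Ano4 crested at CT4 to CT12 and again at CT32 to CT36 in Ctrl, while Lrrc8a, Clcn3, Clcn7 and Ano6 had a highest library at most 1.33 times the lowest.

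In SCNx mice, no gene of the 9 had a rhythm at the threshold, and neither did any of the 13697 tested genes (0%) by edgeR's quasi-likelihood F test. The smallest adjusted p of all genes was 0.137. Lrrc8c shared that value with other genes, among them the hepatocyte markers Alb and Fgb. Its p ranked 37th of 13697. At an unadjusted p under 0.05, 3 of the 9 genes passed (Lrrc8c, Lrrc8b and Clcn2), against 14.8% of all tested genes. In Ctrl 6 of the 9 did, against 24.8%. The answer for SCNx turned on the test. The likelihood ratio test of DESeq2 called 432 genes in SCNx, among them Lrrc8c with an adjusted p of 0.0121 and Lrrc8b with 0.0241, and limma-trend called 0 genes, with 1360 at an unadjusted p under 0.05. The edgeR fit without a filter on low counts also called Lrrc8c, at 0.0367.

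Lrrc8c in SCNx had 16.7 CPM in its lowest library, at CT20, a median of 22.98 and 32.1 in its highest, at CT32. All 12 values lay within the Ctrl range. CT32 was the SCNx library richest in neuron markers. The amplitude of Lrrc8c was 0.32 ± 0.069 (SE) with a peak at 6.19 ± 0.820 h. It was 0.28 to 0.35 over the 9 other settings, which included the fits without 2 and without 4 libraries. The summed level of 5 endothelial markers moved with Lrrc8c in SCNx. It was lowest at CT20 (129 CPM) and CT36 (141 CPM), the 2 lowest libraries of Lrrc8c, and highest at CT28 (347 CPM) and CT32 (328 CPM), the 2 highest. In Ctrl the sum ranged from 119 to 277 CPM, with 271 at CT8 but 158 at CT32, the 2 highest libraries of Lrrc8c. None of the 5 markers was at 0 throughout or called rhythmic in either group, and their part in the values of Lrrc8c was not tested. Lrrc8b had 11.9, 15.2 and 22.2 CPM, with the highest in SCNx CT32, the library richest in neuron markers. Its amplitude was 0.31 ± 0.069 (SE) with a peak at 7.72 ± 0.841 h, close to the 7.78 h of Ctrl. Without Ctrl CT4 and SCNx CT32 the amplitude of Lrrc8b in SCNx was 0.24 and its adjusted p was 0.203.

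The other genes that cycled in Ctrl had smaller fitted amplitudes in SCNx. Lrrc8d had 21.8 CPM at its lowest, a median of 24.9 and 31.0 at its highest, and an amplitude of 0.11 ± 0.059 (SE). Clcn2 had 7.21, 9.86 and 15.2 CPM and an amplitude of 0.27 ± 0.112, with its 2 highest values in SCNx CT32 and SCNx CT0, the libraries rich in neuron and hepatocyte markers. Without those and the 2 such Ctrl libraries it was 0.18. Ano4 had 15.3, 17.7 and 24.7 CPM and an amplitude of 0.14 ± 0.073. The amplitude was lower in SCNx than in Ctrl for 8 of the 9 genes, the exception being Lrrc8a, and for 55.3% of all tested genes. The members were chosen with earlier results of these data known. All tested genes are therefore not a like background for this count, which is a description.

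A test of the difference itself found 1 gene. The cosine and sine of Lrrc8c differed between SCNx and Ctrl with an adjusted p of 0.0369, while 291 of all tested genes, 2.12%, passed this test. The groups parted most at CT8, CT12 and CT36, where SCNx had 28.7, 23.8 and 19.1 CPM against 43.6, 35.8 and 31.6 in Ctrl. At the Ctrl troughs of CT20 and CT44 it had 16.7 and 21.0 CPM against 16.1 and 15.6. The call held in all 8 other settings, at adjusted p-values from 0.00359 to 0.0395, but it stood near the threshold. It was lost in 15 of the 24 fits that left out 1 library, with adjusted p-values between 0.0506 and 0.105. Those of Ctrl were CT8 (0.0711), CT12 (0.105), CT20 (0.0884), CT24 (0.104), CT28 (0.053), CT32 (0.0534), CT36 (0.0574) and CT44 (0.072). Those of SCNx were CT0 (0.0506), CT8 (0.0609), CT12 (0.0969), CT16 (0.0576), CT24 (0.067), CT36 (0.0659) and CT44 (0.0729).

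For Ano4, Clcn2, Lrrc8d and Lrrc8b the adjusted p of the difference was 0.0845, 0.187, 0.305 and 0.735 by edgeR's quasi-likelihood F test. For these genes a rhythm called in Ctrl and not in SCNx is not shown to differ between the groups. DESeq2 called the difference of Ano4, at 0.0253, and the fit without Ctrl CT4 and SCNx CT32 that of Clcn2, at 0.0499. At an unadjusted p under 0.05, 4 of the 9 genes passed, against 15.1% of all tested genes.

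**Figure D3:**
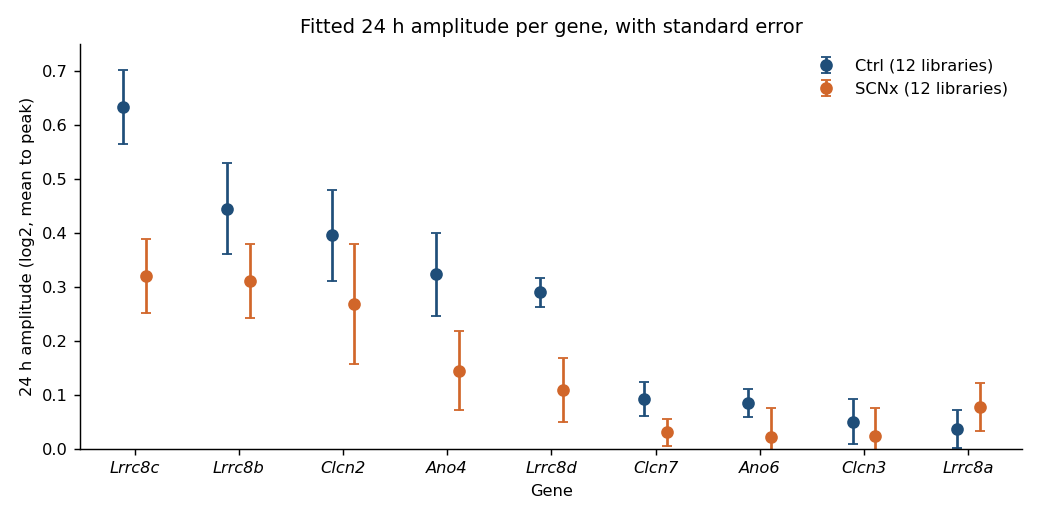
Fitted 24 h amplitude (y axis, log2 from mean to peak) of the 9 tested genes (x axis) in Ctrl (blue) and SCNx (orange), with points for the estimate over 12 libraries and bars for its standard error. Lrrc8c stood at 0.63 in Ctrl and 0.32 in SCNx, and Lrrc8a was the only gene with the larger estimate in SCNx, 0.08 against 0.04.

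Mean levels over all times were close in the 2 groups. No gene of the 9 passed the test of level, and neither did any of the 13697 tested genes (0%) by edgeR's quasi-likelihood F test, with a smallest adjusted p of 0.266. DESeq2 called 7 genes, none of them a gene described here. At an unadjusted p under 0.05, 1 of the 9 passed, against 9.37% of all tested genes. That gene was Lrrc8a. It had 59.3, 63.8 and 73.1 CPM as lowest, median and highest in Ctrl and 50.7, 60.6 and 64.6 in SCNx. The groups overlapped, but 6 of the 12 SCNx libraries were below the lowest Ctrl library, and SCNx was the lower at 10 of 12 time points. Its log2 fold change was -0.12 ± 0.040 (SE), with a 95% interval from -0.20 to -0.04 and an adjusted p of 0.421. Over the 9 other settings, which included the fits without 2 and without 4 libraries, it ran from -0.13 to -0.11 and was not called.

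Fitted log2 fold changes of the other 8 genes ran from -0.15 for Lrrc8c to -0.01 for Lrrc8b, with adjusted p-values from 0.570 to 0.989. The 95% interval was -0.48 to 0.17 for Lrrc8c, -0.40 to 0.14 for Clcn2, -0.28 to 0.13 for Ano4, -0.28 to 0.26 for Lrrc8b, -0.23 to 0.09 for Lrrc8d, -0.15 to 0.03 for Clcn3, -0.13 to 0.01 for Clcn7 and -0.11 to 0.06 for Ano6. All 9 estimates were below 0, with a median of -0.07, while the median of all tested genes was 0.01 and 43.5% of them were below 0. The estimates of Lrrc8b and Ano6 changed sign under other settings. In whole tissue, fewer cells of a type and less RNA per cell cannot be told apart.

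**Figure D4:**
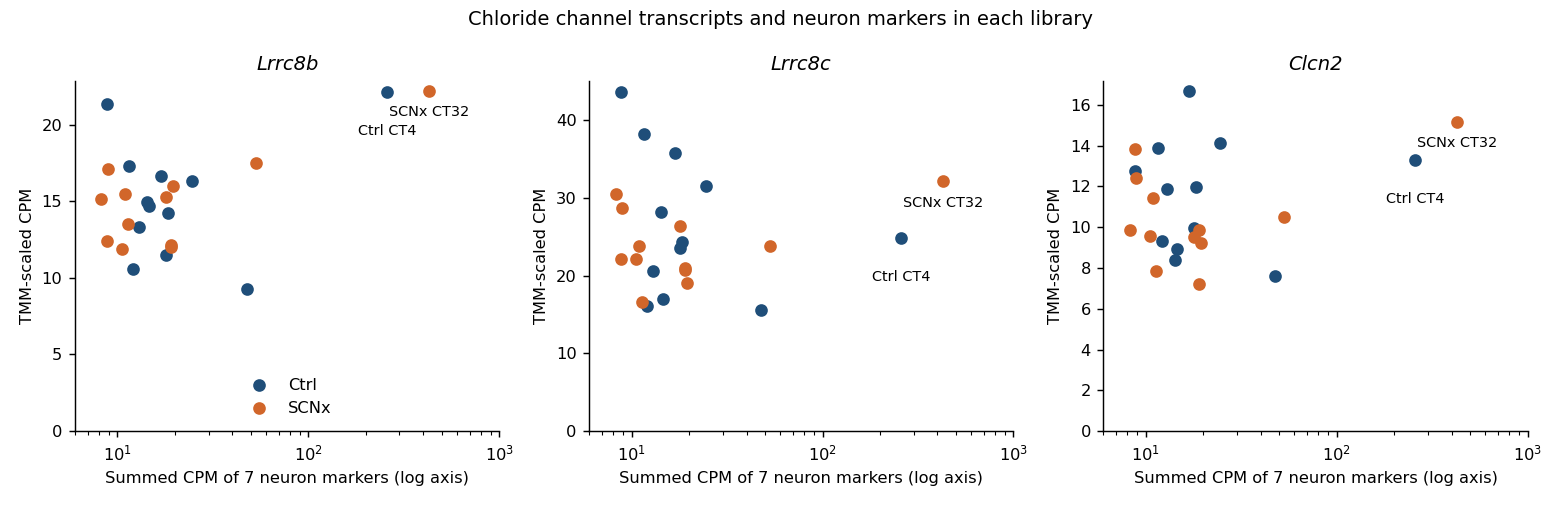
TMM-scaled CPM (y axis) of Lrrc8b, Lrrc8c and Clcn2 against the summed CPM of 7 neuron markers (x axis, log scale), 1 point per mouse, Ctrl in blue and SCNx in orange. The libraries richest in neuron markers, Ctrl CT4 and SCNx CT32, held the 2 highest values of Lrrc8b, 22.1 and 22.2 CPM, but not those of Lrrc8c. Within SCNx, CT32 held the highest value of Lrrc8c, 32.1 CPM.

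Genes whose levels followed those of the 3 clearest cyclers most closely were found by Pearson's r of log2 CPM over the 24 libraries, given as a description. For Lrrc8c these were Maml3 (r = 0.867), 5930430L01Rik (0.858) and Serinc5 (0.855). For Lrrc8d they were 9930014A18Rik (r = 0.903), Hmgb3 (0.897) and Cirbp (0.877), the last of which encodes a cold-inducible RNA-binding protein. For Lrrc8b they were Zc3h7b (r = 0.898), Epm2a (0.846) and Eml2 (0.844). Ctrl peaks of these 9 genes lay between 6.79 h for Hmgb3 and 8.86 h for Zc3h7b. Within the family, r was 0.732 between Lrrc8b and Lrrc8d, 0.704 between Lrrc8b and Lrrc8c and 0.688 between Lrrc8c and Lrrc8d. With Lrrc8a it was -0.127 for Lrrc8c, -0.275 for Lrrc8d and -0.123 for Lrrc8b. The 24 points share sampling times and the scaling of each library.

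Of 32 further genes of chloride channels and related proteins, 20 reached the minimum level, and 2 of these were called rhythmic in Ctrl, 10% against 10.7% of all tested genes. Pacc1, the acid-activated chloride channel, had 10.2 CPM in Ctrl and an amplitude of 0.21, with a peak at 20.1 h and an adjusted p of 0.0319. Ostm1, the partner subunit of CLC-7, had 41.8 CPM and an amplitude of 0.18, with a peak at 17.7 h and an adjusted p of 0.0255. Neither peaked in the same part of the day as the 5 rhythmic genes above. None of the 20 was called in SCNx, for the difference of the rhythm or for the level. The shares of all tested genes were 0%, 2.12% and 0%. The 12 genes below the minimum included Cftr, at 0.108 CPM in Ctrl, Best2 at 0.015 and Panx1 at 0.344.

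All 10 listed kinases and cotransporters of cell volume control were tested. Of these, 1 was called rhythmic in Ctrl, 10% against 10.7% of all tested genes. That gene was Wnk4, a kinase that acts on chloride cotransporters, with 24.7 CPM, an amplitude of 0.35, a peak at 13.1 h and an adjusted p of 0.0188. None of the 10 was called in SCNx, for the difference or for the level, where 0%, 2.12% and 0% of all tested genes were. The abundant members of the list were Slc12a2, the NKCC1 cotransporter of the ChP apical membrane, at 1365 CPM in Ctrl, and the kinase gene Stk39 at 936 CPM, with adjusted p-values for a Ctrl rhythm of 0.0694 and 0.639.

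In the 2 KO libraries, Arntl, the gene of BMAL1, had 10.6 CPM at ZT7 and 9.36 at ZT18 by total count, within the Ctrl range of 2.11 to 40.3. A conditional allele removes only the flanked part of a gene, so the total of a gene does not check its deletion. The KO libraries came from frozen, sectioned and laser-captured tissue, whose RNA was on average less intact. They were made with a low-input total-RNA kit, where Ctrl had an mRNA kit. The KO mice were also older, received tamoxifen and were kept at another site in another lighting schedule. These differences from Ctrl and the genotype cannot be told apart. With 1 mouse per time, the values are a description.

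Clcn7 had 24.9 CPM at ZT7 and 28.2 at ZT18, against 43.0 to 57.4 in Ctrl, all by total count. Ano6 had 87.2 and 108 CPM against 119.9 to 147 in Ctrl. Both KO libraries lay below the Ctrl range for these 2 of the 10 genes, and for 40.4% of all tested genes. Lrrc8a had 66.7 CPM at ZT7, within the Ctrl range of 58.8 to 73.5, and 86.8 at ZT18, above it. Lrrc8d (18.2 CPM), Clcn2 (5.68 CPM) and Lrrc8e (0.166 CPM, from 3 counts) had 1 KO library below the Ctrl range. Lrrc8b, Lrrc8c, Clcn3 and Ano4 lay within it at both times.

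Lrrc8c, the gene with the widest swing in Ctrl, had 23.01 CPM in KO at ZT7 and 27.4 at ZT18. The ratio of ZT7 to ZT18 was 0.840, with an exact 95% interval from 0.734 to 0.960 that covers counting error only. KO ZT7 lies nearest to CT8, and ZT18 lies midway between CT16 and CT20, so Ctrl ratios are given against both. For Lrrc8c in Ctrl, CT8 was 1.78 times CT16 and 2.51 times CT20, and in the second cycle CT32 was 1.72 times CT40 and 2.44 times CT44. In SCNx these ratios were 1.40, 1.77, 1.57 and 1.69. For Lrrc8d the KO ratio was 0.760 (interval 0.656 to 0.881), while the 4 Ctrl ratios ran from 1.24 to 1.57. For Lrrc8b it was 0.903 (interval 0.754 to 1.08, which includes 1), against 1.205 to 1.87 in Ctrl. Clcn2 had a KO ratio of 0.728 (interval 0.557 to 0.948). In Ctrl its ratio was 1.05 and 1.09 with CT16 and CT40 as the night times and 1.27 and 1.82 with CT20 and CT44. Ano4 had a KO ratio of 0.961, against 1.13 to 1.71 in Ctrl. The KO times differ from these Ctrl times by 1 h and 2 h. KO levels were lower at ZT7 than at ZT18 for 8 of the 10 genes, the others being Lrrc8e and Clcn3, and for 63.5% of all tested genes. Neuron markers summed to 232 to 306 CPM and astrocyte markers to 743 to 866 CPM in the KO libraries, and their part in these values was not tested.

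**Figure D5:**
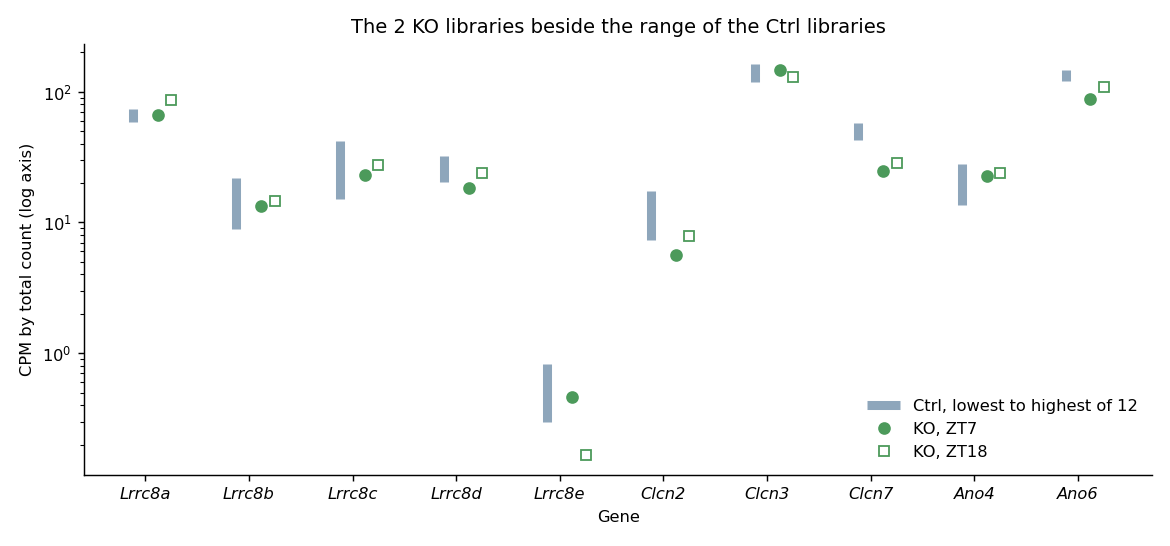
CPM by total count (y axis, log scale) of the 10 genes (x axis) in the KO libraries at ZT7 (filled circle) and ZT18 (open square), beside bars from the lowest to the highest of the 12 Ctrl libraries. Clcn7 and Ano6 lay below the Ctrl bar at both times, and Lrrc8c at 23.01 and 27.4 CPM lay inside it.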

How the data were processed

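RNA-seq of ChP was available for 12 Ctrl, 12 SCNx and 2 KO mice. Per the labels and the methods of the study, the authors made libraries with the KAPA mRNA HyperPrep kit (Ctrl, SCNx) or a SMARTer stranded kit (KO) and sequenced single-end reads, which the nf-core/rnaseq pipeline with STAR and Salmon 1.9.0 assigned to the genes of GRCm39. The authors deposited the values as Salmon's estimated counts per gene, not normalized. They were rounded to whole numbers here.

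The 13697 genes whose mean CPM was 1 or more in both groups entered the quasi-likelihood F test of edgeR 4.0.16 (R 4.3.3) after TMM scaling. Over the 24 libraries, one model gave each group its own mean and its own cosine and sine of period 24 h, and a second, for the level, only its mean. The p-values were adjusted by Benjamini-Hochberg over all tested genes and called under 0.05. The rhythm methods of the study (eJTK, ARSER and BIO_CYCLE) were not run. The fits were also run on simulated counts, with means, library sizes and spread taken from all 24 libraries. The simulation did not model a library rich in markers of other tissues. No result given here rests on that run. Levels are TMM-scaled CPM, and beside KO CPM by total count. Exon lengths came from GENCODE M21, an earlier build than that of the counts, and promoters from RefSeq. Ctrl and SCNx libraries held at least 38751201 estimated counts, and each tested member at least 303 in every one of them. Intervals on KO ratios cover counting error only.

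The text names all 10 genes, each gene of 2 further lists called in any comparison, with a few more of those lists chosen after their values were seen, and the 3 genes most like each of the 3 members with the smallest p for a Ctrl rhythm. The members and lists were chosen with earlier results of these data known. Alternatives were DESeq2 1.42.0 (size factors and tests), limma-trend (limma 3.58.1, prior count 1), no filter and a minimum of 5 CPM, each group fitted alone, a linear trend, circadian time as a block, the level from the model with cosine and sine, CPM without TMM, and fits without 1, 2 or 4 libraries. The fit without 2 libraries and the second gene length were chosen after seeing the data.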

Additional observations from a re-analysis of the deposited data

Results flagged for a closer look

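The 24 h rhythm of Lrrc8c differed between SCNx and Ctrl with an adjusted p of 0.0369 by edgeR's quasi-likelihood F test, which is a difference between groups in the same contrast. Its amplitude was 0.63 in Ctrl and 0.32 in SCNx on the log2 scale, its fitted peak was at 8.86 h and 6.19 h, and SCNx was below Ctrl at 6 of 12 time points, among them CT8, CT12, CT32 and CT36. The call was lost in 15 of the 24 fits without 1 library.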

How the results depend on the processing

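The rhythm of Lrrc8b, Lrrc8c and Lrrc8d in Ctrl passed the threshold in all 9 other settings and all 24 fits without 1 library. That of Ano4 passed in all 9 settings and 23 of the 24 fits, and that of Clcn2 in 8 settings and 19 fits. The number of all genes called rhythmic in Ctrl was 839 with no filter on low counts, 2223 without Ctrl CT4 and SCNx CT32, 2901 without these and Ctrl CT16 and SCNx CT0, and 918 to 2249 in the fits without 1 library, against 1459. Of the 9 tested genes, 3 to 6 were called in those single-library fits. In SCNx the DESeq2 tests called 432 genes and 2 of the 9, the fit without a filter 360 genes and 1 of the 9, and the single-library fits 0 to 6 genes, the 6 without SCNx CT24. For the difference of the rhythm the counts were 589 genes and 2 of the 9 by DESeq2, 640 genes without the 4 libraries, 504 genes and 2 of the 9 without the 2 libraries, and 163 to 466 genes and 0 to 1 of the 9 in the single-library fits. For the level DESeq2 called 7 genes and the single-library fits 0 to 3, the 3 without SCNx CT32. The level difference of Ano6 became 0.018 on the log2 scale without the 4 libraries. That of Lrrc8b became 0.0085 with limma-trend, 0.0077 with circadian time as a block, 0.0045 in the model with cosine and sine and 0.0013 without the 4 libraries, and ran from -0.080 to 0.050 in the single-library fits. The cause of these changes was not tested. Circadian time as a block, which pairs the 2 mice of each time, changed no level call of the 9 genes.

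Each time point was 1 mouse per group and 2 cycles were sampled. The SE of an amplitude or peak comes from the residuals of its own curve. The main tests came from fits of all 24 libraries, in which both groups share 1 estimate of the spread. Lrrc8e, with 14 to 38 counts per Ctrl library, was fitted only where no filter was applied, and was not called. The KO values have no replicate and no control prepared in the same way.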
